A study of Mus musculus with 24 samples.

Results

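The mRNAs of catecholamine synthesis and storage were followed through the response of mouse neuroblastoma cells to Torin1, with and without eIF4E3. The 9 genes were taken by their symbols from the deposited count tables, which together list 12759 transcripts, and each of the 9 is listed there by 1 canonical transcript. They are Th and Dbh, which act on the catecholamine chain, Slc18a1 and Slc18a2, which load it into vesicles, and Gch1, Gchfr, Pts, Spr and Qdpr, which supply, restrain or regenerate the cofactor. N2a (Neuro-2a) is a mouse neuroblastoma cell line. The ctrl cells, labelled WT, had received an empty Cas9 vector, and the eIF4E3 KO cells had received Cas9 vectors with guides to exons of Eif4e3. Both were selected with puromycin over repeated rounds of transfection, and since no isolation of single clones was described, the KO is a selected population. Cells of either genotype were given Torin1, which blocks the kinase mTOR, at 250 nM, or the same volume of its solvent DMSO, for 2 h. RNA-seq measured the mRNA in 3 libraries per condition, and ribo-seq counted ribosome footprints, the mRNA pieces that a ribosome shields from nuclease, in 3 libraries of ctrl Torin1, KO DMSO and KO Torin1 and in replicates 1 and 3 of ctrl DMSO, the second replicate being not analysed here. The comparisons ask how Torin1 changed the mRNA, the footprints and their ratio, the translational efficiency (TE). They also ask how these differed between KO and ctrl cells. Replicates are passages of these cells, so the loss of eIF4E3 cannot be told apart from other differences between the KO and ctrl populations.

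Catecholamines are made from tyrosine. Tyrosine hydroxylase (Th) makes L-DOPA and sets the pace of the pathway, an aromatic amino acid decarboxylase makes dopamine, and dopamine β-hydroxylase (Dbh), inside dense core vesicles, makes noradrenaline. Dopamine reaches the vesicle through a monoamine transporter, VMAT2 (Slc18a2) in neurons and sympathetic cells or VMAT1 (Slc18a1) in neuroendocrine cells. Th depends on tetrahydrobiopterin (BH4), which GTP cyclohydrolase 1 (Gch1), 6-pyruvoyltetrahydropterin synthase (Pts) and sepiapterin reductase (Spr) make in turn from GTP. The feedback regulatory protein of GTP cyclohydrolase 1 (Gchfr) restrains the entry step, and quinoid dihydropteridine reductase (Qdpr) restores the cofactor after use. None of the 9 genes breaks catecholamines down, so that step is described by a separate list of genes.

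The 9 mRNAs differ in the region that a scanning ribosome crosses before it starts. By the annotation of GENCODE (mouse release 21, build GRCm38), which holds 12701 of the 12759 transcripts under their identifiers, the 5′ TL, the transcript leader upstream of the start codon, is 15 nt long in Pts, 21 nt in Spr, 53 nt in Th, 65 nt in Gchfr, 134 nt in Qdpr, 135 nt in Slc18a2, 146 nt in Gch1, 283 nt in Dbh and 465 nt in Slc18a1. The median over all matched transcripts is 171 nt, and 7 of the 9 are shorter than that. Upstream ATG triplets occur in the leaders of Dbh (7), Slc18a1 (4) and Spr (1), while the other 6 have none, as do 48.7% of all transcripts. The start codons of the 4 mRNAs whose TE changed in a comparison below, and of Gch1 and Th for contrast, are shown with 9 bases before and 6 bases after, the ATG in capitals.
Dbh: atccctgccATGcaagct
Slc18a2: agcaaagctATGgccctg
Gchfr: ccacgcaccATGccctat
Spr: gttccaggcATGgaggca
Gch1: gccgggtccATGgagaag
Th: gcttgcactATGcccacc
The base 3 before the ATG is a purine in 8 of the 9 mRNAs, Gch1 being the exception, against 86.6% of all transcripts, and a G follows the ATG in 4 of the 9 (Slc18a2, Spr, Gch1 and Qdpr) against 53.0%. The CDS is 255 nt in Gchfr, 789 nt in Spr, 1554 nt in Slc18a2 and 1869 nt in Dbh, so a footprint count of Gchfr comes from a much shorter stretch.

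The genes are scattered over the genome. Dbh and Gchfr share chromosome 2, at 27165233 to 27183200 and at 119167773 to 119172390, both on the plus strand. Th is on chromosome 7 from 142892752 to 142900014 (minus strand, 13 exons), Slc18a2 on chromosome 19 from 59260896 to 59296012 (plus strand, 16 exons), Gch1 on chromosome 14 from 47153895 to 47189413 and Spr on chromosome 6 from 85133678 to 85137766, both on the minus strand. An annotated antisense RNA overlaps the CDS of Qdpr over 109 nt and that of Slc18a2 over 87 nt, and as the use of strand in counting was not given in the sources used here, reads there cannot be assigned to one strand.

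Over the transcripts listed in every table of an assay, the RNA-seq libraries held 17047795 to 28910907 reads and the ribo-seq libraries 669010 to 5284909 footprints, the fewest in ctrl DMSO replicate 3. The targeted gene Eif4e3 had 12.0 to 18.2 TMM-scaled CPM (read or footprint counts per 1000000, after edgeR's TMM scaling, the unit of every level below) in the ctrl RNA-seq libraries and 2.89 to 5.04 in the KO ones, and 11.6 to 22.0 against 2.29 to 6.61 in footprints, and the genotypes did not overlap in either assay. Of 12 markers of sympathoadrenal neuroblastoma, 11 were listed in all tables. With Torin1 the footprints of 3 of the 11 changed in ctrl cells, where 15.6% of all transcripts were called, and of 6 in KO cells, where 40.6% were, with the tubulin Tubb3 lower (-1.23 and -1.06 on the log2 scale, adjusted p = 2.75e-06 and 3.84e-10 by edgeR) and the oncogene Mycn higher (1.47 and 1.30, adjusted p = 6.17e-05 and 1.85e-08 by edgeR). Between genotypes with Torin1, 1 of the 11 was called in each measure, lower in footprints and in TE and higher in mRNA. The shares of all transcripts called were 6.03%, 2.99% and 1.96% in that order. In DMSO 0 of the 11 were called in any measure. Neither Chat, Slc18a3 nor Slc5a7, the cholinergic markers, had a row in all 4 tables of an assay. Of 5 fibroblast markers Pdgfra and Dcn had rows in the RNA-seq tables of Torin1 against DMSO of both genotypes, and Col1a1, Col1a2 and Lum did not. The summed mRNA of the fibroblast markers was 1.41 to 2.06 CPM in ctrl DMSO, 2.22 to 2.65 in ctrl Torin1, 1.26 to 2.42 in KO DMSO and 2.40 to 2.71 in KO Torin1. Of 4 macrophage markers only Cd68 had rows there, at 1.45 to 3.63, 1.76 to 4.08, 1.30 to 3.96 and 2.75 to 3.80 CPM in the same order. The fibroblast sum was higher with Torin1 in ctrl cells and overlapped in KO cells, and its part in the results was not tested.

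Gch1 was the most abundant of the 9 mRNAs and Slc18a1 the least. Per kb of CDS, the ctrl DMSO mRNA level was 254 ± 22.9 CPM (SD, n = 3) for Gch1, 125 ± 6.54 for Qdpr, 124 ± 22.0 for Gchfr, 31.5 ± 4.36 for Spr, 27.5 ± 4.67 for Slc18a2, 26.8 ± 0.608 for Dbh, 14.1 ± 2.17 for Pts, 3.61 ± 0.551 for Th and 0.943 ± 0.169 for Slc18a1. The libraries of Qdpr and Gchfr overlapped, as did those of Slc18a2 with Spr and with Dbh, and all other neighbours in this order were separate. In footprints per kb the order in ctrl DMSO was Gch1 (292 ± 62.7 CPM, SD, n = 2), Gchfr (228 ± 9.10), Qdpr (166 ± 4.46), Slc18a2 (80.5 ± 12.7), Dbh (53.2 ± 6.70), Spr (46.7 ± 13.8), Pts (18.5 ± 5.06) and Th (1.04 ± 1.47). Gch1 and Gchfr differed by about 1 SD of Gch1, and the libraries of Dbh and Spr overlapped. Th, the enzyme that sets the pace of the pathway, had the fewest footprints of the 8 genes with values in all libraries. Slc18a2 carried the most footprints for its mRNA, with a ratio of mean footprint to mean mRNA level of 2.93 in ctrl DMSO, against 1.99 for Dbh, 1.84 for Gchfr, 1.48 for Spr, 1.33 for Qdpr, 1.31 for Pts, 1.15 for Gch1 and 0.288 for Th. The ratio of Th rests on 13 and 0 footprints, the 0 in shallow replicate 3, where 3 counts would be 4.85 CPM. For Th it was 0.767 in ctrl Torin1, 0.512 in KO DMSO and 0.552 in KO Torin1.

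**Figure D1:**
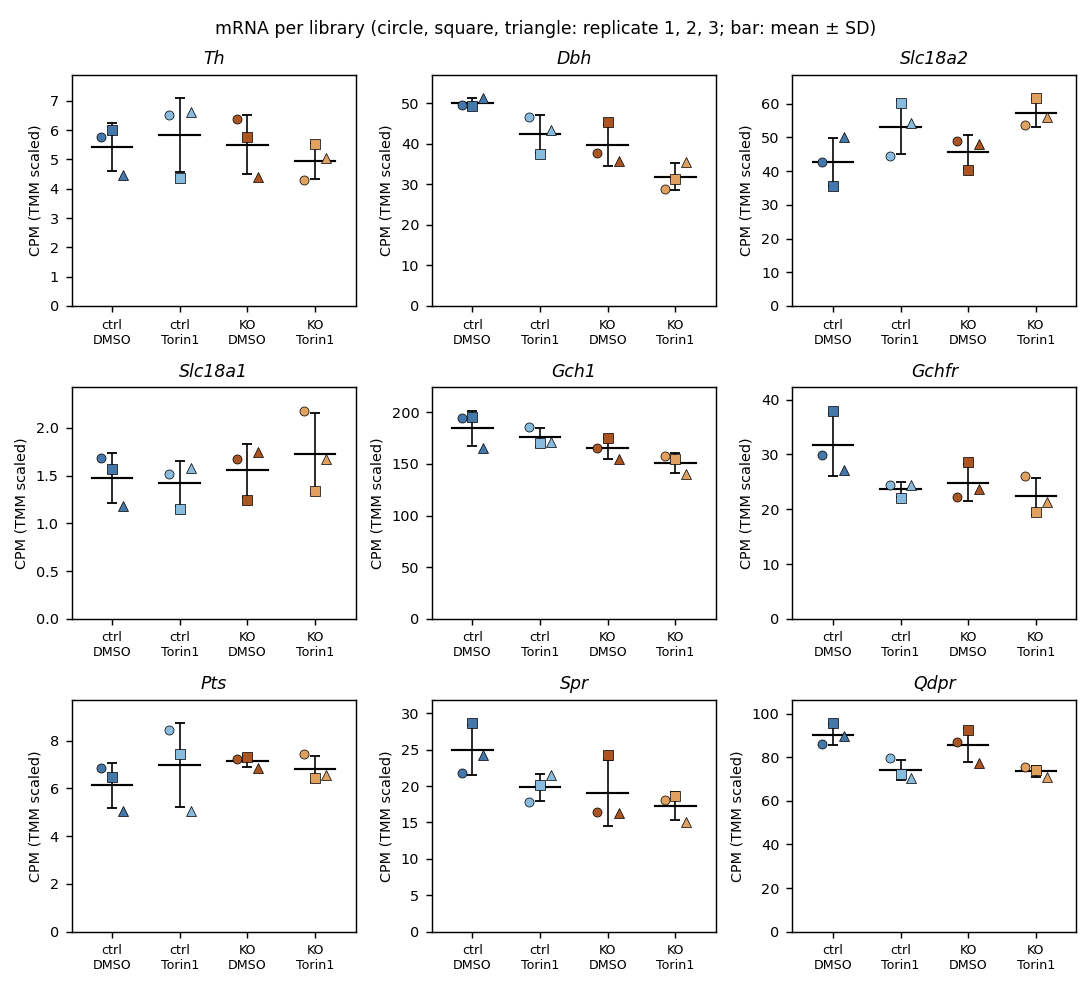
mRNA level (CPM after TMM scaling, linear axes from 0) of the 9 genes in each of the 12 RNA-seq libraries, by condition, with the mean and SD of each condition (n = 3) as bars. Dbh descends from 49.4 to 51.4 CPM in ctrl DMSO to 28.9 to 35.5 CPM in KO Torin1, while the 4 conditions overlap for Th and Slc18a1.

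Torin1 left the mRNA levels of the 9 genes without a call in either genotype. In ctrl cells 0 of the 9 passed an adjusted p of 0.05 (edgeR's quasi-likelihood test, adjusted by the Benjamini-Hochberg method over all transcripts, as for every adjusted p below), where 2.73% of 10958 transcripts did, and in KO cells 0 of 9, where 9.97% of 11004 did. Unadjusted p-values under 0.05 were found for 3 genes in each genotype, Gchfr, Spr and Qdpr in ctrl and Slc18a2, Dbh and Qdpr in KO cells. With DESeq2 0 of 9 were called in ctrl and 1 in KO cells. The replicate block called 1328 transcripts in ctrl cells in place of 299, and none of the 9. The median log2 fold change of the 9 was -0.07 in ctrl and -0.12 in KO cells, beside 0.00 and -0.01 over all transcripts.

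The gene nearest to a call was Slc18a2. Its mRNA read 42.6, 35.5 and 50.0 CPM in ctrl DMSO, 44.4, 60.2 and 54.4 in ctrl Torin1, 49.0, 40.2 and 48.1 in KO DMSO and 53.6, 61.8 and 56.1 in KO Torin1 (replicates 1 to 3). The KO libraries with Torin1 all lay above those with DMSO, and the ctrl libraries overlapped. The log2 fold change was 0.32 in KO cells (standard error 0.096, adjusted p = 0.0543 by edgeR) and 0.31 in ctrl cells (standard error 0.16, adjusted p = 0.253 by edgeR). When libraries were paired by passage (a replicate block), the KO value was 0.33 with an adjusted p of 0.03 by edgeR, in a fit that called 1797 transcripts in place of 1097, and DESeq2 gave an adjusted p of 0.0238.

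In ctrl cells the unadjusted p was lowest for Gchfr, with 29.8, 38.0 and 27.2 CPM in DMSO and 24.5, 22.0 and 24.4 with Torin1 (log2 fold change -0.42, standard error 0.15, adjusted p = 0.138 by edgeR). Without ctrl DMSO replicate 3 its value was -0.52 and its adjusted p 0.0473 by edgeR, and without ctrl DMSO replicate 2 the value was -0.27. Qdpr gave -0.28 in ctrl (standard error 0.11, adjusted p = 0.174 by edgeR) and -0.21 in KO cells (standard error 0.083, adjusted p = 0.124 by edgeR), with no overlap between DMSO and Torin1 libraries in either genotype, and it passed in KO cells without KO DMSO replicate 3 (-0.27, adjusted p = 0.0492 by edgeR). Th, at 91 to 165 reads per library, had 4.47 to 5.99 CPM in ctrl DMSO, 4.37 to 6.63 in ctrl Torin1, 4.39 to 6.37 in KO DMSO and 4.29 to 5.52 in KO Torin1. Its 4 conditions overlapped.

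**Figure D2:**
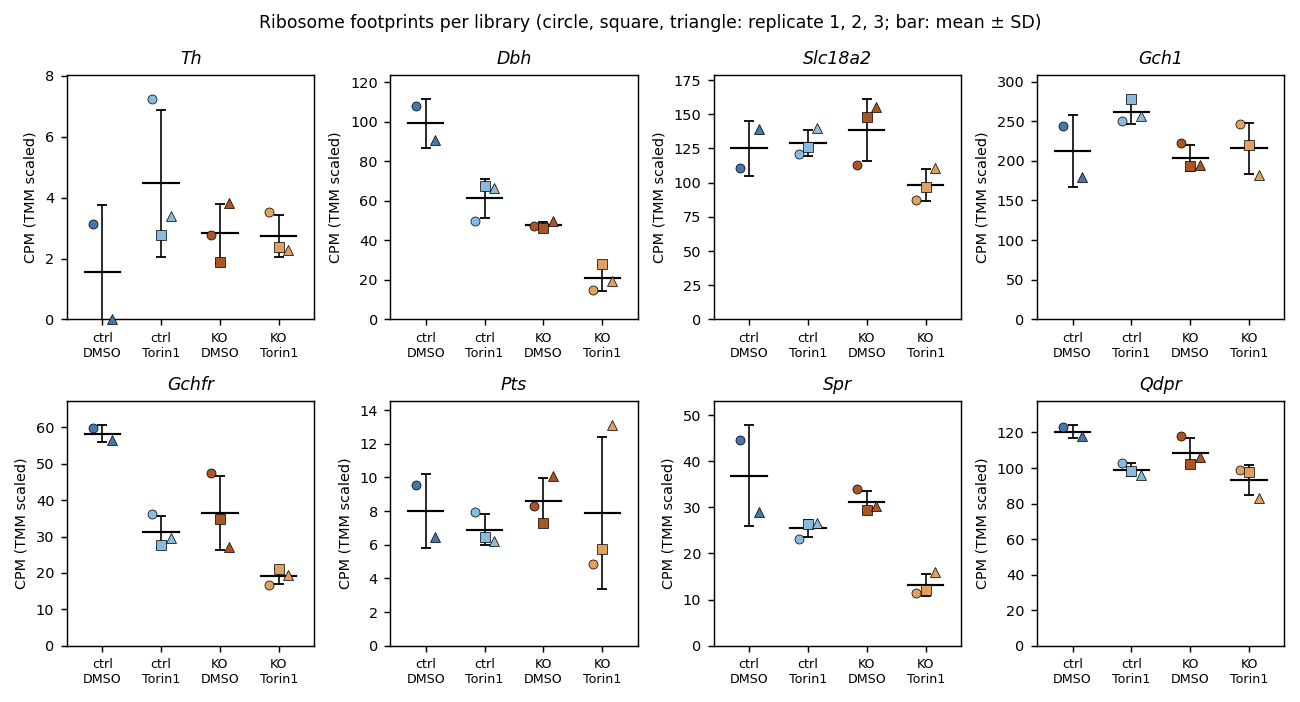
Ribosome footprints (CPM after TMM scaling, linear axes from 0) of 8 genes in each ribo-seq library, with the mean and SD of each condition (n = 2 in ctrl DMSO, n = 3 elsewhere) as bars, cut at 0 for Th in ctrl DMSO. For Dbh, Gchfr and Spr all 3 KO Torin1 libraries sit below every other library, and Slc18a1 is left out for lack of values in KO DMSO.

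Footprints passed the test for several of the genes. Torin1 lowered the footprints of Dbh and Gchfr in ctrl cells and those of Spr, Dbh, Gchfr and Slc18a2 in KO cells, and raised none of the genes under TMM scaling. In ctrl cells 2 of 9 were called, both lower, where 15.6% of 10693 transcripts were called and 9.93% were called lower. In KO cells 4 of the 8 genes tested were called, all lower, against 40.6% of 10822 transcripts called and 22.1% called lower. The median log2 fold change of the genes was -0.29 in ctrl and -0.38 in KO cells, beside 0.02 and 0.02 over all transcripts. For so few genes, 4 of 8 in KO cells lies near the share of all transcripts that was called. Footprints and mRNA are relative to all transcripts of a library, and in bulk samples fewer cells with an mRNA and less of it per cell cannot be told apart.

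Dbh, the noradrenaline-forming enzyme, had 108 and 90.6 CPM of footprints in ctrl DMSO (replicates 1 and 3), 49.9, 67.5 and 66.4 in ctrl Torin1, 47.4, 46.2 and 49.7 in KO DMSO and 15.0, 28.3 and 19.4 in KO Torin1. In each genotype every library with Torin1 lay below every library with DMSO, and the KO libraries with DMSO lay just under the lowest ctrl library with Torin1. The log2 fold change with Torin1 was -0.72 in ctrl (standard error 0.18, adjusted p = 0.00913 by edgeR) and -1.21 in KO cells (standard error 0.19, adjusted p = 3.99e-06 by edgeR). These values rest on 34 to 452 footprints per library.

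Slc18a2, the vesicle transporter, was called in KO cells and not in ctrl cells. Its footprints were 111 and 139 CPM in ctrl DMSO and 121, 126 and 140 in ctrl Torin1, which overlap (log2 fold change 0.09, standard error 0.16, adjusted p = 0.747 by edgeR). In KO cells they were 113, 148 and 155 CPM with DMSO and 87.2, 96.7 and 111 with Torin1, a decrease of every library and a log2 fold change of -0.52 (adjusted p = 0.00208 by edgeR, standard error 0.13).

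Gchfr, the restraint on Gch1, had 59.9 and 56.6 CPM in ctrl DMSO and 36.2, 27.8 and 29.5 in ctrl Torin1. In KO cells it had 47.4, 34.9 and 27.1 CPM with DMSO and 16.7, 21.1 and 19.4 with Torin1. The Torin1 libraries were below the DMSO libraries in both genotypes, and the sizes were alike, with log2 fold changes of -0.93 in ctrl (standard error 0.20, adjusted p = 0.00399 by edgeR) and -0.95 in KO cells (standard error 0.21, adjusted p = 0.000442 by edgeR).

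Spr, the last enzyme of BH4 synthesis, had 44.6 and 29.1 CPM in ctrl DMSO, 23.2, 26.4 and 26.7 in ctrl Torin1, 34.0, 29.5 and 30.2 in KO DMSO and 11.5, 12.0 and 16.0 in KO Torin1. Torin1 and DMSO did not overlap in either genotype, and the KO Torin1 libraries were the lowest of all. In KO cells Spr fell by 1.27 (log2 scale; standard error 0.21, adjusted p = 1.08e-05 by edgeR). In ctrl cells its value of -0.65 (standard error 0.23) missed the threshold with an adjusted p of 0.0629 by edgeR. There the 2 ctrl DMSO libraries disagreed, with a value of -0.80 (adjusted p = 0.0149 by edgeR) without replicate 3 and of -0.19 (adjusted p = 0.85 by edgeR) without replicate 1, and Spr passed with all 4 conditions fitted together (-0.66, adjusted p = 0.0288 by edgeR).

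The other 5 genes passed in neither genotype. Gch1, which opens BH4 synthesis, had 244 and 180 CPM in ctrl DMSO, 250, 278 and 257 in ctrl Torin1, 223, 193 and 195 in KO DMSO and 246, 220 and 182 in KO Torin1. In ctrl cells the Torin1 libraries of Gch1 all lay above the DMSO libraries, and in KO cells they overlapped. Its log2 fold change of 0.27 in ctrl (95% interval -0.06 to 0.60) and of 0.07 in KO cells (-0.18 to 0.32) did not reach the threshold (adjusted p = 0.266 and 0.679 by edgeR). Qdpr, which regenerates the cofactor, had -0.29 in ctrl (95% interval -0.61 to 0.03) and -0.23 in KO cells (-0.49 to 0.03), with no overlap between DMSO and Torin1 libraries in either genotype. Pts, on 4 to 40 footprints per library, had 95% intervals of -1.20 to 0.43 in ctrl and -0.86 to 0.53 in KO cells. Th had 13 and 0 footprints in ctrl DMSO, 10, 6 and 6 in ctrl Torin1, 7, 9 and 11 in KO DMSO and 8, 5 and 4 in KO Torin1, and the count of 0 in replicate 3 allows a level of up to 4.85 CPM (3 counts, counting error only). A change in Th footprints was not detectable at this depth, with 95% intervals of -0.62 to 2.00 in ctrl and -0.95 to 1.00 in KO cells. Slc18a1 had 6 and 1 footprints in ctrl DMSO and 4, 8 and 2 in ctrl Torin1, and was not tested in KO cells.

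The scaling and the shallow ctrl DMSO pair both bore on these calls. With library size alone, where the median of all transcripts stood at 0.23 in ctrl and 0.265 in KO cells, Dbh, Gchfr and Spr kept their direction and calls, Slc18a2 in KO cells went to -0.27 (adjusted p = 0.0915 by edgeR), Qdpr and Pts in KO cells turned to 0.02 and 0.09, and Gch1 passed as higher in ctrl (0.48, adjusted p = 0.0345 by edgeR) and in KO cells (0.32, adjusted p = 0.0277 by edgeR). That scaling moved the calls over all transcripts from 1062 lower and 608 higher to 684 and 1691 in ctrl cells, and from 2391 and 1999 to 1532 and 3766 in KO cells. Without ctrl DMSO replicate 1, the deeper of the pair, the ctrl calls of Dbh (-0.55, adjusted p = 0.25 by edgeR) and Gchfr (-0.88, adjusted p = 0.11 by edgeR) were lost.

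**Figure D3:**
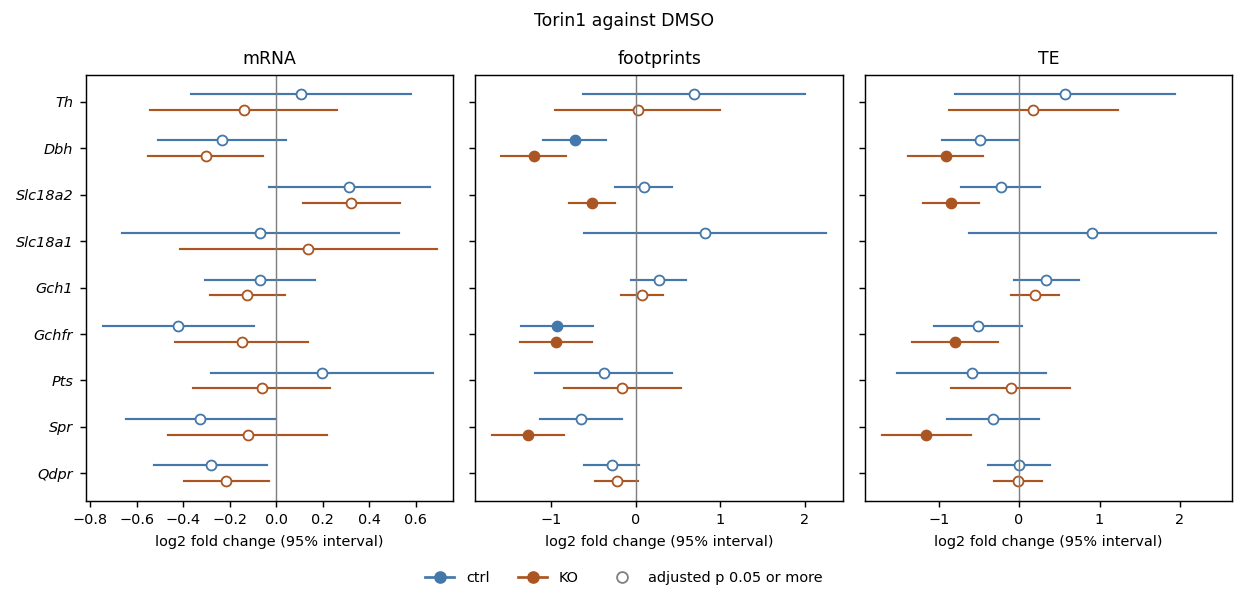
Log2 fold change of Torin1 against DMSO (x axis, with 95% interval) for each gene in ctrl and KO cells, from left to right for mRNA, footprints and TE; filled points passed an adjusted p of 0.05. The filled points are footprints of Dbh and Gchfr in ctrl cells and footprints and TE of Dbh, Slc18a2, Gchfr and Spr in KO cells.

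Relative to their mRNAs, the same 4 genes lost footprints in KO cells. In one model of both assays, the TE with Torin1 in KO cells fell by 1.15 for Spr on the log2 scale (adjusted p = 0.0022 by edgeR, standard error 0.27), by 0.91 for Dbh (standard error 0.23, adjusted p = 0.00366), by 0.85 for Slc18a2 (standard error 0.17, adjusted p = 0.000485) and by 0.80 for Gchfr (standard error 0.26, adjusted p = 0.0237). These are 4 of 8 genes tested, against 28.3% of 10535 transcripts called and 17.8% called lower. The ratio of mean footprint to mean mRNA level went from 1.64 to 0.757 for Spr, from 1.21 to 0.655 for Dbh, from 3.01 to 1.72 for Slc18a2 and from 1.47 to 0.857 for Gchfr. For Slc18a2 the 2 layers moved apart, with fewer footprints on a level of mRNA that was not lower. The call of Gchfr was lost with library size alone (-0.57, adjusted p = 0.0916 by edgeR) and in 4 of the 12 fits that left out a library, namely replicate 1 of KO DMSO or of KO Torin1 in either assay, at values of -0.74 to -0.60. With library size alone, where the median TE of all transcripts stood at 0.22 and the calls went from 1875 lower and 1106 higher to 1230 and 2526, Gch1 was called as higher (0.42, adjusted p = 0.024 by edgeR).

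In ctrl cells 0 of the 9 genes changed in TE by edgeR, where 4.72% of 10432 transcripts did, with 1 gene at an unadjusted p under 0.05 and 0 by DESeq2. That gene was Dbh, at -0.49 (standard error 0.23, adjusted p = 0.288 by edgeR). Gchfr stood at -0.51, Spr at -0.32 and Slc18a2 at -0.23, each with a 95% interval that includes 0, and Gch1 at 0.34 (95% interval -0.06 to 0.74). The TE of Qdpr had a log2 fold change of -0.01 in both genotypes, with intervals of -0.39 to 0.38 in ctrl and -0.32 to 0.29 in KO cells, and was 0.15 and 0.21 with library size alone, which in ctrl cells moved the median TE of all transcripts to 0.15 and the calls from 451 lower and 41 higher to 327 and 162.

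Whether the response to Torin1 differed between genotypes was tested over all 4 conditions, and 0 of the 9 genes passed for mRNA, 0 of 8 for footprints and 0 of 8 for TE. Over all transcripts 0.0% of 11073, 0.113% of 10662 and 0.0% of 10443 passed. Unadjusted p-values under 0.05 were found for 0, 1 and 1 of the genes, and DESeq2 called 0 in each. The footprints of Slc18a2 had the largest contrast beside its error, with a response lower in KO by 0.60 (95% interval -1.04 to -0.16, adjusted p = 0.472 by edgeR). For TE the values were -0.80 for Spr (95% interval -1.59 to -0.01, adjusted p = 0.852), -0.60 for Slc18a2 (-1.22 to 0.01, adjusted p = 0.852) and -0.40 for Dbh (-1.06 to 0.26, adjusted p = 0.931, all by edgeR). Gchfr footprints gave 0.01 (-0.64 to 0.66). A TE call in KO cells and none in ctrl cells was therefore not shown to be a difference between them.

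**Figure D4:**
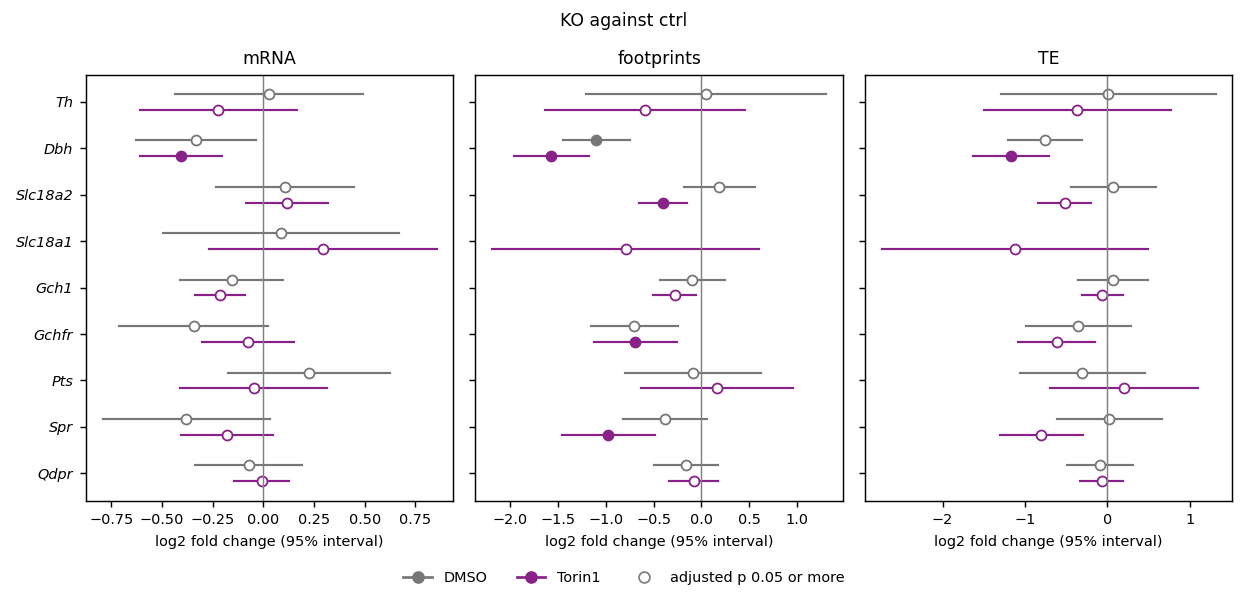
Log2 fold change of KO against ctrl (x axis, with 95% interval) for each gene in DMSO and with Torin1, from left to right for mRNA, footprints and TE; filled points passed an adjusted p of 0.05. Dbh is the filled point in all panels with Torin1 and in footprints with DMSO, joined by Slc18a2, Gchfr and Spr in footprints with Torin1.

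Between genotypes Dbh stood apart already in DMSO. Of the footprints tested in DMSO, 0.0279% of 10757 transcripts were called and 0.0186% called lower, and Dbh was 1 of these, with means of 99.5 ± 12.5 CPM (SD, n = 2) for ctrl and 47.8 ± 1.73 CPM (SD, n = 3) for the KO. The log2 fold change was -1.10 (adjusted p = 0.0132 by edgeR, standard error 0.17). The call held under each of the 5 alternatives in model, scaling and filter and in 1 of the 5 fits that left out a library, where the value ranged from -1.13 to -0.94 in the 4 that lost it (without ctrl DMSO replicate 1 and without any 1 of the KO DMSO libraries). Gchfr had -0.70 (standard error 0.22, adjusted p = 0.501 by edgeR), with no overlap between genotypes, and the other genes were between -0.38 for Spr and 0.19 for Slc18a2. The mRNA of Dbh was 49.5, 49.4 and 51.4 CPM in ctrl DMSO and 37.8, 45.3 and 35.7 in KO DMSO, a separation that missed the threshold (-0.33, standard error 0.13, adjusted p = 0.683 by edgeR). In DMSO 0 of 9 mRNAs were called, against 0.0183% of 10924, with 1 at an unadjusted p under 0.05 and 0 by DESeq2. The replicate block called 866 transcripts here in place of 2, and none of the 9, so the share of mRNAs called depended on the pairing. Likewise 0 of 8 genes were called for TE, against 0.0% of 10475, with 1 at an unadjusted p under 0.05 and 0 by DESeq2. The TE of Dbh had a log2 fold change of -0.76 (95% interval -1.21 to -0.30, adjusted p = 0.978 by edgeR).

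With Torin1, the KO had fewer footprints on Dbh, Spr, Gchfr and Slc18a2. These were 4 of 9 genes, all lower, against 6.03% of 10792 transcripts called and 4.01% called lower. The median of the 9 was -0.59, beside 0.00 over all transcripts, and is the value of Th, which rests on 4 to 10 footprints. Dbh had 61.3 ± 9.86 CPM in ctrl and 20.9 ± 6.76 in KO cells (SD, n = 3 each), which is 2.97-fold lower by the fit (log2 fold change -1.57, adjusted p = 4.61e-07 by edgeR, standard error 0.20). Spr had 25.4 ± 1.95 and 13.1 ± 2.49 CPM (-0.97, standard error 0.24, adjusted p = 0.00961 by edgeR). Gchfr had 31.1 ± 4.44 and 19.1 ± 2.19 CPM (-0.69, standard error 0.21, adjusted p = 0.0427 by edgeR) and Slc18a2 129 ± 9.98 and 98.5 ± 12.2 CPM (-0.40, standard error 0.13, adjusted p = 0.0481 by edgeR). In these 4, named by their calls in the same libraries, no KO library reached the lowest ctrl library. The share of all transcripts so separated was not counted, here or in the other comparisons. Gch1 was also without overlap but missed the threshold (-0.28, standard error 0.11, adjusted p = 0.138 by edgeR), and Qdpr (-0.08), Pts (0.17), Th (-0.59, on 4 to 10 footprints) and Slc18a1 (-0.79, on 1 to 8 footprints) overlapped or rested on few counts. The Torin1 libraries of KO cells enter both this comparison and that with KO DMSO, so the 2 are not independent.

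The call of Dbh held under every alternative, from -1.86 to -1.36. That of Spr was lost without KO Torin1 replicate 1 (-0.88) or 2 (-0.91), that of Gchfr in all 6 fits that left out a library (-0.77 to -0.59), by DESeq2 (-0.70) and with all 4 conditions fitted together (-0.69), and that of Slc18a2 in 4 of the 6 (-0.42 to -0.32, those without KO Torin1 replicate 1 or 2 or ctrl Torin1 replicate 2 or 3), by DESeq2 (-0.39), with all 4 conditions together (-0.40) and with library size alone (-0.39).

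Dbh alone also fell in mRNA and in TE. Its mRNA was 46.6, 37.4 and 43.4 CPM in ctrl Torin1 and 28.9, 31.4 and 35.5 in KO Torin1, with no overlap and a log2 fold change of -0.41 (adjusted p = 0.0422 by edgeR, standard error 0.094), which made it 1 of 9 genes against 1.96% of 11007 transcripts called and 0.954% called lower. That call was lost with all 4 conditions together (adjusted p = 0.416 by edgeR), with library size alone (adjusted p = 0.052 by edgeR) and in 5 of the 6 fits that left out a library (all but that without ctrl Torin1 replicate 2), at values of -0.49 to -0.33. Gch1 mRNA was 186, 170 and 171 CPM in ctrl Torin1 and 158, 155 and 140 in KO Torin1 (-0.21, standard error 0.058, adjusted p = 0.0782 by edgeR), and was called with the replicate block (-0.21, adjusted p = 0.00396 by edgeR, among 1041 transcripts in place of 216) and by DESeq2 (adjusted p = 0.0313). The TE of Dbh was lower in the KO by 1.17 (95% interval -1.64 to -0.71, adjusted p = 0.00397 by edgeR), a ratio of footprint to mRNA level of 0.655 against 1.44, and held under every alternative. It was 1 of 9 genes, against 2.99% of 10509 transcripts called and 2.46% called lower. Slc18a2 (-0.52, adjusted p = 0.071), Spr (-0.80, adjusted p = 0.0759) and Gchfr (-0.61, adjusted p = 0.152, all by edgeR) had intervals below 0 but did not pass. With the replicate block the TE of Slc18a2 did pass (-0.52, adjusted p = 0.0132 by edgeR, among 550 transcripts in place of 314), as it did without KO Torin1 replicate 3 of the ribo-seq (-0.61) or ctrl Torin1 replicate 2 of the RNA-seq (-0.62), and DESeq2 called Spr (-0.79, adjusted p = 0.0496).

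**Figure D5:**
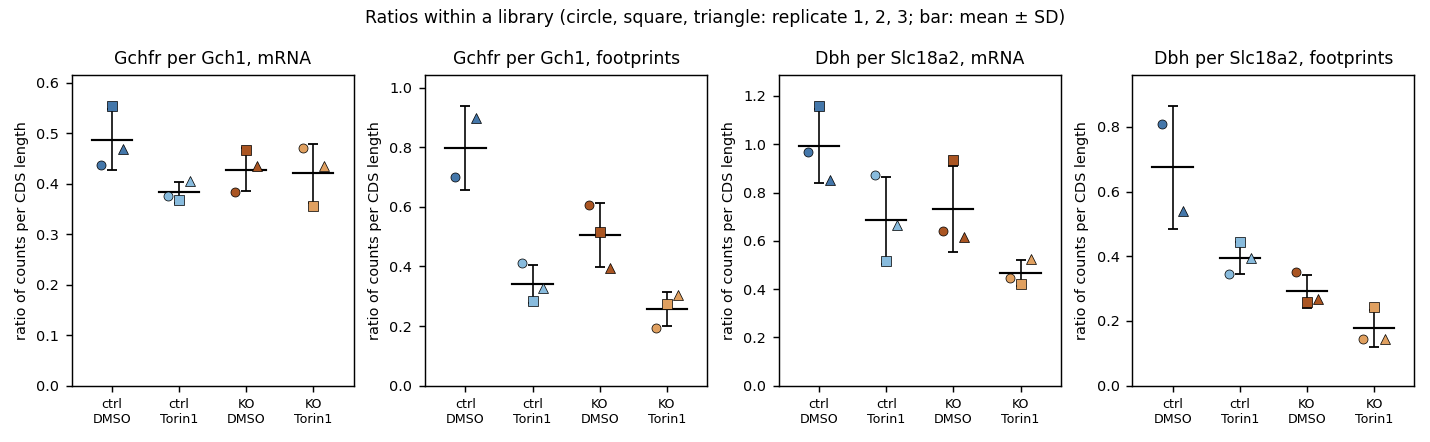
Ratios of counts per CDS length within each library, Gchfr per Gch1 and Dbh per Slc18a2, in mRNA and in footprints (linear axes from 0), with the mean and SD of each condition (n = 2 for ctrl DMSO footprints, n = 3 elsewhere) as bars. In footprints, the Torin1 libraries lie below the DMSO libraries of the same genotype in all 4 pairings, while the mRNA ratio of Gchfr to Gch1 overlaps between the KO conditions.

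Ratios of 2 members within a library do not depend on any scaling between libraries. These 2 pairs were chosen after their values were seen and are given as a description. Gchfr binds the Gch1 enzyme, and the ratio of their footprints per CDS length was 0.699 and 0.898 in ctrl DMSO, 0.411, 0.284 and 0.328 in ctrl Torin1, 0.606, 0.515 and 0.394 in KO DMSO and 0.194, 0.273 and 0.304 in KO Torin1. In their mRNAs the ratio stood at 0.487 ± 0.0606, 0.383 ± 0.0202, 0.428 ± 0.0424 and 0.421 ± 0.0584 in the same order (SD, n = 3 each). The footprint ratio was lower with Torin1 in both genotypes, and the mRNA ratio was lower in every ctrl library with Torin1 but overlapped in KO cells. Dbh works in the vesicle that Slc18a2 fills, and the ratio of Dbh to Slc18a2 footprints was 0.675 ± 0.19 in ctrl DMSO (SD, n = 2), 0.394 ± 0.0505 in ctrl Torin1, 0.292 ± 0.0504 in KO DMSO and 0.177 ± 0.0572 in KO Torin1 (SD, n = 3 each). Their mRNA ratio was 0.993 ± 0.155, 0.685 ± 0.179, 0.731 ± 0.178 and 0.466 ± 0.0537 (SD, n = 3 each), so both layers had their lowest mean ratio in KO Torin1. In mRNA the KO Torin1 libraries (0.423 to 0.526) overlapped those of ctrl Torin1 (0.517 to 0.873), which overlapped those of ctrl DMSO.

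Around the 9 genes, the steps that break catecholamines down or take them up were covered by a list of 13 genes. Of these, 6 were tested, since Maoa, Maob and the plasma membrane transporters Slc6a2 and Slc6a3, among others, did not have a row in every table. In KO cells Torin1 lowered the footprints of all 6, against 22.1% of all transcripts called lower, with a median of -0.79. Akr1b3, an aldose reductase (-0.89, standard error 0.12, adjusted p = 2.47e-07), Adh5, an alcohol dehydrogenase (-0.69, standard error 0.12, adjusted p = 1.93e-05), the plasma membrane monoamine transporter Slc29a4 (-1.24, standard error 0.26, adjusted p = 0.000212) and the mitochondrial aldehyde dehydrogenase Aldh2 (-1.03, standard error 0.28, adjusted p = 0.00355, all by edgeR) had the smallest adjusted p-values. In TE 5 of the 6 were called in KO cells, all lower, against 28.3% of all transcripts called and 17.8% called lower, with a median of -0.69 (Akr1b3 -0.74, Adh5 -0.65, Aldh2 -1.10 and Slc29a4 -0.97 among them). In ctrl cells Akr1b3 footprints alone of the 6 passed, against 15.6% of all transcripts called and 9.93% called lower (-0.61, standard error 0.14, adjusted p = 0.00556 by edgeR). There 3 of the 6 had an unadjusted p under 0.05 by edgeR, and the median was -0.38. A difference in response between genotypes was not shown, with 0 of the 6 called for the interaction in footprints and in TE. Over all transcripts 0.113% and 0.0% were called. Between genotypes with Torin1, Aldh2 was lower in the KO in footprints (-1.04, standard error 0.32, adjusted p = 0.041 by edgeR) and in mRNA (-0.50, standard error 0.11, adjusted p = 0.0294 by edgeR). It was 1 of the 6 in each, against 6.03% and 1.96% of all transcripts called.

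Of 6 further genes of synthesis and storage 3 were tested, the decarboxylase Ddc, the co-chaperone Dnajc12 and Cyb561, which passes electrons into the vesicle to keep ascorbate reduced for Dbh. Of all transcripts, 15.6% were called in footprints with Torin1 in ctrl cells, 40.6% in KO cells and 28.3% in TE in KO cells. Between genotypes with Torin1 the shares were 6.03% in footprints and 2.99% in TE. Of the 3 genes, Cyb561 was the 1 that was called. Its footprints fell with Torin1 by 1.02 in ctrl (standard error 0.26, adjusted p = 0.0118) and by 1.67 in KO cells (standard error 0.21, adjusted p = 6.68e-08), its TE in KO cells by 1.64 (standard error 0.23, adjusted p = 6.95e-06), and with Torin1 it was lower in the KO in footprints (-0.92, standard error 0.26, adjusted p = 0.0252) and in TE (-1.18, standard error 0.26, adjusted p = 0.00977, all by edgeR). None of the 3 mRNAs was called by edgeR in any of the 4 pairs of conditions, with unadjusted p-values under 0.05 for 1 between genotypes in DMSO and for 2 with Torin1.

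Of the 6 genes beside BH4 synthesis, in its salvage, recycling and folate neighbours, all were tested. In KO cells Torin1 lowered the footprints of 2 of the 6, against 40.6% of all transcripts called and 22.1% called lower. These were Pcbd1, the carbinolamine dehydratase of BH4 recycling (-0.61, standard error 0.17, adjusted p = 0.00488 by edgeR), and Akr1b3, counted above as well. In TE 1 was called lower and 1 higher there, against 28.3% of all transcripts called. In mRNA 1 was called, lower, against 9.97%. Of 7 other BH4-dependent enzymes 4 were tested, and each call below is 1 of these 4. Of all transcripts, 40.6% were called in footprints with Torin1 in KO cells. Between genotypes with Torin1, 6.03% were called in footprints and 1.96% in mRNA. Tph1, a tryptophan hydroxylase, gained footprints with Torin1 in KO cells (0.57, standard error 0.20, adjusted p = 0.0239 by edgeR) and had more in the KO than in ctrl with Torin1 (0.76, standard error 0.22, adjusted p = 0.0334 by edgeR), the opposite direction to Spr and Dbh. The mRNA of the nitric oxide synthase Nos1 was lower in the KO with Torin1 (-0.59, standard error 0.12, adjusted p = 0.0214 by edgeR).

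The cargo and makers of dense core vesicles, where Dbh and Slc18a2 reside, moved in both directions. Of 12 listed genes 8 were tested, and the footprints of 6 changed with Torin1 in KO cells, 4 lower and 2 higher, against 40.6% of all transcripts called and 22.1% called lower, with a median of -0.24. Chga (-0.67, standard error 0.12, adjusted p = 3.15e-05) and Chgb (-0.52, standard error 0.11, adjusted p = 0.000359), chromogranins, fell, and the secretogranins Scg3 (0.50, standard error 0.10, adjusted p = 0.000199) and Scg2 (0.49, standard error 0.11, adjusted p = 0.000328, all by edgeR) rose. In ctrl cells 3 were called, against 15.6% of all transcripts, Chga lower (-0.68) and Scg3 (0.65) and Scg2 (0.60) higher. The TE of 4 of the 8 was called in KO cells, against 28.3% of all transcripts called and 17.8% called lower. That of Chgb, Chga and Cpe, a carboxypeptidase that trims neuropeptides, fell (-0.42, -0.44 and -0.39) and that of Scg3 rose (0.46). Between genotypes with Torin1, Cpe was lower in the KO in footprints (-0.41, standard error 0.11, adjusted p = 0.0176 by edgeR) and Chgb in TE (-0.47, standard error 0.11, adjusted p = 0.0153 by edgeR). Each was 1 of the 8, against 6.03% of all transcripts called in footprints and 2.99% in TE. Of 14 dopamine and adrenergic receptors at most 1 passed the filter on low counts in any comparison, and none was called by edgeR, with 1 unadjusted p under 0.05, for mRNA with Torin1 in KO cells.

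The transcripts whose pattern over the libraries was most like that of a member are given by Pearson's r of log2(CPM + 1), as a description over libraries that share conditions. Over 12 RNA-seq libraries and 8616 transcripts, Th was nearest to Mvp (0.768), Slc25a26 (0.749) and Pygl (0.709), Dbh to Gusb (0.918), Smpdl3b (0.91) and Polr2c (0.897), and Gch1 to Aldh9a1 (0.946), Gm20498 (0.914) and Anxa4 (0.909). Over 11 ribo-seq libraries and 8456 transcripts, Dbh was nearest to Samm50 (0.972), Aldh9a1 (0.945) and Wdr18 (0.939), and Gch1 to Pdhb (0.923), Rasl11a (0.892) and Morn4 (0.886), while Th had too few footprints to be compared. None of these is one of the other 8 genes.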

How the data were processed

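The authors trimmed reads with cutadapt, mapped them to mm10 (HISAT2) and to Ensembl's canonical transcripts (Bowtie2), and deposited unnormalized counts per CDS (reads for RNA-seq, riboWaltz P-sites for ribo-seq) in a table per assay and pair of conditions. The same tables hold the authors' fold changes and p-values, and 2 further tables their TE results. None of these was used. Columns were matched to samples by header and title. Where 2 columns of a genotype have identical headers (RNA-seq, DMSO, KO and ctrl), they were used without a replicate number.

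Tests took transcripts whose CPM exceeded 1 in every replicate of 1 or more conditions, and were run with edgeR 4.0.16 in R 4.3.3 (TMM, glmQLFit, glmQLFTest), with Benjamini-Hochberg adjustment over all transcripts and a threshold of 0.05. TE was tested as the assay-by-condition term with separate scaling of the 2 assays, as RiboDiff was not used here. Standard errors are the fold change divided by the root of F. Levels are CPM with TMM factors from all libraries of an assay. Lengths and start sites came from GENCODE release 21. The fits were tested on simulated counts. Python 3.11.15, pandas 2.3.3, numpy 2.4.6 and matplotlib 3.10.9 were used for tables and figures.

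Alternatives were DESeq2 1.42.0, library size alone, no filter, all 4 conditions together, each library left out, and a replicate block. Per the labels each replicate is a different passage, so the number was taken to pair libraries, and p-values measure the spread between passages. The correlation of deviations from the condition mean was 0.0554 to 0.838 between same-numbered RNA-seq libraries (differently numbered ones, -0.713 to 0.558), and -0.0509 to 0.225 in ribo-seq (differently numbered, -0.225 to 0.202). The block took numbered columns from the tables of Torin1 against DMSO.

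The genes, the lists and the naming rule were chosen with earlier results of these data known. Named are the 9 genes and Eif4e3, from each list up to 4 genes called in a comparison by smallest adjusted p, and for Th, Dbh and Gch1 (with a mean of at least 10 counts) the 3 transcripts with the highest r among those with at least 10 CPM. A few genes of the lists are not reported here by name. The depth of the libraries, 669010 to 5284909 footprints and 17047795 to 28910907 reads, sets the counting error of each level.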

Additional observations from a re-analysis of the deposited data

How the results depend on the processing

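The numbers of genes called were within 1.5 times of those reported in all alternatives for footprints and TE with Torin1 in KO cells, for TE with Torin1 in ctrl cells, for mRNA and TE between genotypes in DMSO and for the interactions, and no called value changed its direction. With library size alone, however, the genes behind these counts in KO cells with Torin1 changed. Gch1 was called as higher in footprints and in TE, while Slc18a2 lost its call in footprints and Gchfr in TE. In the mRNA of KO cells with Torin1 the count went from 0 to 1 with the replicate block and with DESeq2, and was 0 to 1 over the fits that left out a library, as it was in ctrl cells. For mRNA between genotypes with Torin1 it went from 1 to 2 with the replicate block and with DESeq2, to 0 with all 4 conditions together and with library size alone, and was 0 to 1 over the left-out libraries. For TE in that comparison it went from 1 to 2 with the replicate block and with DESeq2 and was 1 to 2 over the left-out libraries. The block changed no other count by that much. For footprints in that comparison it went from 4 to 2 with DESeq2 and with all 4 conditions together and was 1 to 3 over the left-out libraries. For footprints in DMSO it was 0 to 1, and for footprints with Torin1 in ctrl cells 0 to 3, over the left-out libraries. Leaving out a ctrl DMSO ribo-seq library leaves 1, which is then assumed to vary like the other condition. The causes were not tested, beyond the fewer libraries of the left-out fits. Depth limits Th, Slc18a1 and Pts in footprints most.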
